A study of Mus musculus with 2 samples.

Results

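A set of 10 genes of the blood vessel lining, Plvap, Pecam1, Cdh5, Kdr, Flt1, Egfl7, Eng, Emcn, Esam and Tie1 was read in RNA of the whole mouse adrenal gland. The genes were taken by gene symbol from both deposited tables of transcript models, and all 10 had reads in both libraries, among 16945 annotated genes read in at least 1 of the 2. The animals were 36-day-old females of B6CASTF1/J, a hybrid of C57BL/6J and CAST/EiJ, with no treatment in the labels. Both libraries belong to this 1 group, so no condition was compared. They carry the numbers of biological replicates 1 and 2, with 1 µg of RNA entered for replicate 1. The labels differ on whether the animal was the same, so the spread between the libraries may be technical.

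Endothelial cells line every vessel, hold to each other through junctions, and respond to vascular endothelial growth factors (VEGF) through receptor kinases. In endocrine glands such as the adrenal, the capillaries are fenestrated, with pores through the cell closed by diaphragms. Vessels run from the capsule through the steroid-making cortex to the medulla, so a bulk sample holds endothelial RNA beside that of many other cells. Fewer cells of a type and less RNA per cell cannot be told apart in such a sample.

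Replicate 1 held 1223776 reads and replicate 2 453761, of which 1144572 and 414588 fell in annotated genes. Levels are given as CPM, reads per 1000000 reads of annotated genes, and 3 reads, the upper limit that a count of 0 allows, equal 2.62 and 7.24 CPM. Each long read is counted once whatever the length of its transcript, so CPM holds no length term. The part of transcript length in the level of a gene was not tested. Textbook adrenal genes were abundant in both libraries, with the cortical gene Star at 10684 and 8799 CPM and the medullary gene Chga at 3953 and 2496 CPM. Cyp11a1, the cholesterol side-chain cleavage enzyme, stood at 20811 and 41366 CPM.

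The isoform results turn on a few short stretches, shown here from the mm10 reference with GENCODE M21 transcripts. The first set is the fork at which soluble and membrane Flt1 part. The lower-case bases end the shared exon 13, and the capitals are the first 36 bases after the fork, at chr5:147639189-147639224 in Flt1-203 and chr5:147634488-147634523 in Flt1-202, both on the minus strand.
Flt1-203 fork: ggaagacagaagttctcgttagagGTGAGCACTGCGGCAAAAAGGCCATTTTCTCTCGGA
Flt1-202 fork: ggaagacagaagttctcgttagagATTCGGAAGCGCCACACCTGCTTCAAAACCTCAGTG

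The second set holds coding stretches that some reads of a gene contained and others lacked. Capitals mark those bases, and the lower-case bases are the 15 on either side in the spliced transcript. The Pecam1 exons lie at chr11:106671742-106671798 and chr11:106662002-106662024 on the minus strand. The others are on the plus strand, at chr3:137403984-137404022 for Emcn, chr2:26592242-26592280 for Egfl7 and chr2:32657516-32657518 for Eng.
Pecam1 longer tail exon: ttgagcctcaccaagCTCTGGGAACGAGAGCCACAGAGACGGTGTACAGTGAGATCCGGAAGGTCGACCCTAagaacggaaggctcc
Pecam1 shorter tail exon: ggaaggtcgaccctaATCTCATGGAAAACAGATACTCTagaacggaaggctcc
Emcn shorter exon: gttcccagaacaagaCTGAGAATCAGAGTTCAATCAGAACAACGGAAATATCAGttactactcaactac
Egfl7 penultimate exon donor: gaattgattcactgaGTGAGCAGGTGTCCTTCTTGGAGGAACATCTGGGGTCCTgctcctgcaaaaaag
Eng second exon acceptor: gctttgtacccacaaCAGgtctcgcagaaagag

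The third set is the microRNA inside Egfl7, miR-126a-3p, shown because reads of the host gene bear on the intron that carries it. The mature sequence, from RefSeq on GRCm38.p6, lies at chr2:26591402-26591423 on the plus strand, and its seed, bases 2 to 8, is in capitals.
miR-126a-3p: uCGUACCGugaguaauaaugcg

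Plvap led the 10 genes, at 250.7 CPM in replicate 1 and 289.4 in replicate 2, and Cdh5 was the lowest, at 5.24 and 2.41 CPM. Together the genes gave 802 and 282 reads, or 700.7 and 680.2 CPM (690.4 ± 14.5, SD, n = 2). Plvap alone supplied 35.8% and 42.6% of these reads, and Plvap, Egfl7, Eng and Emcn together 77.4% and 81.2%. The spread between the libraries was small for the sum and wider for single genes.

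Plvap encodes the protein of the diaphragms that span fenestrae and caveolae, and lies on chromosome 8 from 71497765 to 71511752. It had 287 reads in replicate 1 and 120 in replicate 2. Its mean of 270.1 ± 27.4 CPM (SD, n = 2) placed it at rank 679 of the 16945 genes read. Its lowest library value lay above the highest of the next gene, Egfl7, and the intervals of the 2 genes did not meet in either library.

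Egfl7, a secreted matrix protein of endothelial cells, had 141 and 43 reads, or 123 and 104 CPM. Eng, the co-receptor endoglin that binds ligands of the bone morphogenetic protein and transforming growth factor beta family, had 82 and 46 reads, or 71.6 and 111 CPM. The library values of these genes overlapped, and so did those of Eng and Emcn. Emcn, a sialomucin of capillary and venous endothelium, had 111 and 20 reads, or 97.0 and 48.2 CPM.

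Esam, an immunoglobulin-type adhesion molecule of endothelial tight junctions, varied least among the more abundant genes, with 55 and 21 reads, or 48.1 and 50.7 CPM. Tie1, a receptor kinase that works beside the angiopoietin receptor, had 62 and 8 reads, or 54.2 and 19.3 CPM. Pecam1, the adhesion protein CD31, had 21 and 9 reads, or 18.3 and 21.7 CPM. From Egfl7 down to Kdr, the library values of each gene overlapped those of the next in the order. Genes further apart could still be separate, as Egfl7 was from Emcn and Esam from Pecam1.

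The VEGF receptors were low and near each other, though their levels moved with the models counted. In full-length models alone the means of Flt1 and Kdr were 5.32 and 3.73 CPM against 17.6 and 15.4 in all models, and without the Genomic class they were 9.06 and 10.1. Flt1, which binds VEGF tightly and can act as a trap for it, had 21 and 7 reads, or 18.3 and 16.9 CPM. Kdr, the main signalling receptor, had 16 and 7 reads, or 14.0 and 16.9 CPM. Cdh5, the cadherin of endothelial adherens junctions, had 6 reads and 1 read. The exact Poisson interval of its level, which covers counting error only, ran from 1.92 to 11.4 CPM in replicate 1 and from 0.0611 to 13.4 CPM in replicate 2. A gene that is a classic marker of the lineage was thus read at about the limit of depth here.

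**Figure D1:**
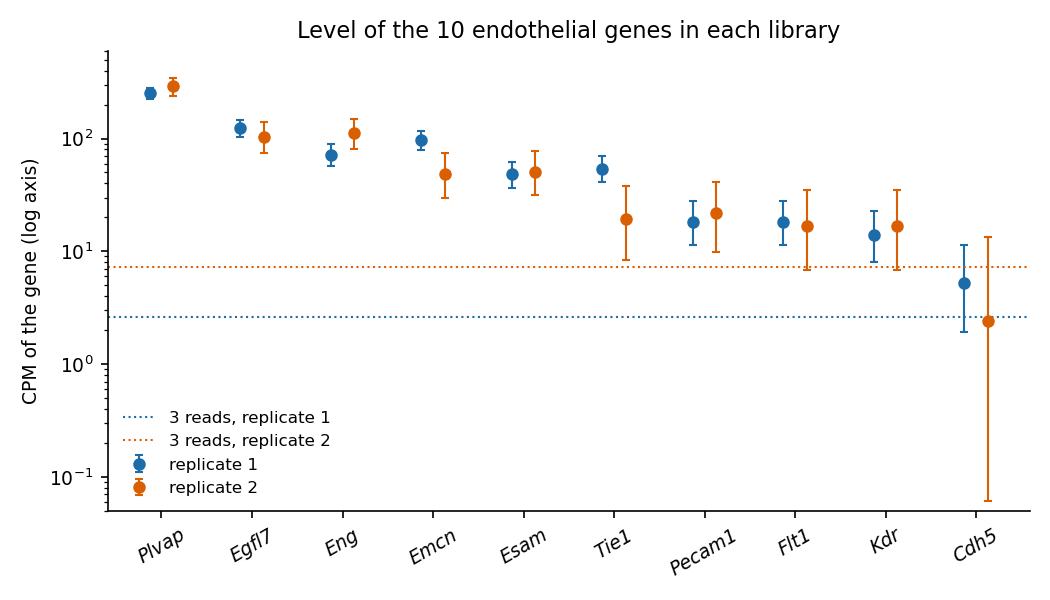
CPM of each of the 10 genes (vertical log axis) in replicate 1 (blue) and replicate 2 (orange), with 95% exact Poisson intervals of the reads as bars and the level of 3 reads in each library as dotted lines. Plvap stood highest at 250.7 and 289.4 CPM, and the Emcn and Tie1 points were lower in replicate 2.

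The 2 libraries differed in single genes. Among the 9 genes with at least 10 reads in total, Emcn and Tie1 were lower in replicate 2 and none was higher, by a two-sided exact binomial test of reads against scaled library sizes with Benjamini-Hochberg adjustment over all genes tested. The share called over all 9885 genes was 14.0%, with 6.13% lower and 7.86% higher, so 2 of 9 is a count near that background. The test compares these libraries and not conditions.

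Emcn fell by 0.92 on the log2 scale (CPM + 1) from replicate 1 to replicate 2, with an adjusted p of 0.0477 in the exact binomial test. Tie1 fell by 1.37, with an adjusted p of 0.0426 in the same exact test. Both p-values lay just under the threshold of 0.05. Over the alternatives the adjusted p of the exact binomial test ran from 0.0251 to 0.363 for Emcn and from 0.0243 to 0.219 for Tie1, and neither gene passed once replicate 1 was thinned to the depth of replicate 2. Counting models of more than 1 exon alone, an alternative chosen after the data were seen, gave Emcn 87 and 19 reads and an adjusted p of 0.295 in the exact binomial test.

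A 1-exon model at the 3′ end of Emcn held 24 reads in replicate 1 and 1 read in replicate 2. It covers 474 bases that end with the annotated end of Emcn-201, and its reads span no junction. Tie1 likewise had a model listed with a length of 1 base, which held 5 reads in replicate 1 and 0 in replicate 2. The part of these models in the difference was not tested beyond the counts above.

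The remaining tested genes did not pass. Eng was nearest, with a log2 ratio of 0.69 and an adjusted p of 0.0697 (exact binomial test), and it passed as higher in replicate 2 when the Genomic class was left out of all genes (adjusted p = 0.0381). Plvap had a log2 ratio of 0.28, Pecam1 0.30, Esam 0.14, Flt1 -0.05 and Egfl7 -0.18. Kdr had one of 0.32, which turned to -1.25 without the Genomic class and to -0.91 in models of more than 1 exon, added once the values were known, with no call in any of them. At an unadjusted p under 0.05, 3 members differed, but the share of all genes at that threshold was not counted, so this count has no background.

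Each read falls in a model with a class. Known models match an annotated transcript, NIC models join annotated splice sites in a new combination, and NNC models use at least 1 unannotated splice site. These 3 are called full-length here. ISM models match only a stretch of an annotated transcript, and Genomic models match no splicing pattern. Over the 10 genes, 636 of 802 reads were full-length in replicate 1, a share of 79.3% (95% Wilson interval 76.4 to 82.0), and 234 of 282 in replicate 2, a share of 83.0% (78.2 to 86.9). Known models alone held 573 and 217 reads, and NIC and NNC models together held fewer than the ISM models in both libraries.

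The share of full-length reads ran from over 9 in 10 for Plvap to few or none for Cdh5. Plvap reached 94.4% and 95.8%, and Egfl7 91.5% and 95.3%. Esam had 76.4% and 81.0%, Emcn 75.7% and 95.0%, and Eng 59.8% and 60.9%. Pecam1 had 57.1% of 21 reads and 88.9% of 9, and Tie1 64.5% of 62 and 37.5% of 8. The VEGF receptors were lowest of the genes that had 10 or more reads, Flt1 with 19.0% and 28.6% and Kdr with 25.0% and 14.3%. In replicate 2, Flt1 had 2 full-length reads of 7, and 1 of the 2 was an NNC model of 3 exons and 727 nt that starts inside the gene. Of the Cdh5 reads, 1 of 6 and 0 of 1 were full-length.

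**Figure D2:**
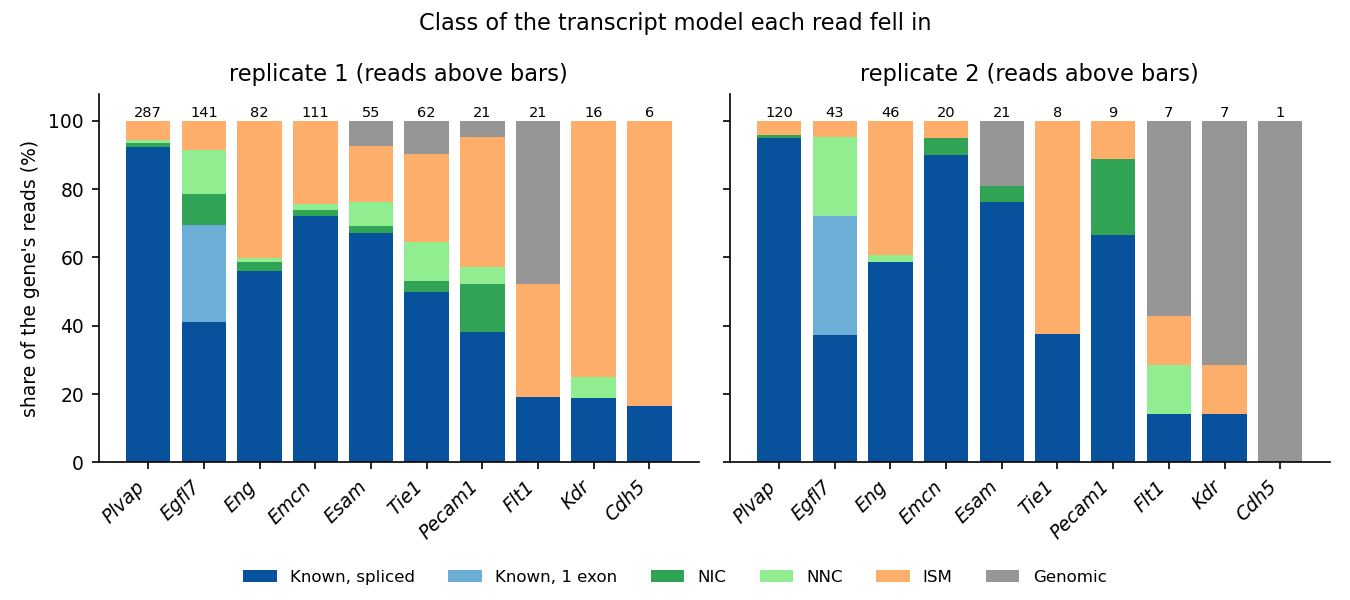
Share of each gene's reads (vertical axis, %) by class of model in replicate 1 (left) and replicate 2 (right), with the number of reads above each bar. Full-length classes are blue and green, and ISM and Genomic reads, orange and grey, made up most of Flt1, Kdr and Cdh5.

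Of the 10 genes, Plvap, Egfl7, Eng, Emcn and Esam had at least 20 reads in each library, and the full-length shares of these 5 were tested between the libraries. None differed by a two-sided Fisher's exact test with Benjamini-Hochberg adjustment, against 14.4% of the 3694 genes tested, and 0 passed at an unadjusted p under 0.05. Emcn had the widest gap of the 5, with an adjusted p of 0.259 (Fisher's exact test).

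The full-length share was lower in genes with longer transcripts. Over the 10 genes, Spearman's rho between the share and the length of the gene's lead transcript was -0.818 in each library, a description of 10 points that share 2 libraries and very unequal depth. When annotated models of 1 exon were not counted as full-length, an alternative chosen after the data were seen, the Egfl7 share was 63.1% and 60.5% and rho was -0.685 and -0.661. The lead transcripts ran from Egfl7-202 of 1372 nt and Plvap-201 of 1987 nt to Kdr-201 of 5924 nt and Flt1-203 of 6292 nt. Over all genes with at least 20 reads in each library, the median share fell from 93.7% and 94.1% under 1 kb to 75.5% and 73.1% over 4 kb. Kdr and Flt1 lay below the lower quartile of that last class, 51.3% and 54.5%, in both libraries. With 7 reads each in replicate 2, neither had the reads needed to be among those genes. The Wilson interval of Flt1 in replicate 2, 8.22 to 64.1, included that quartile.

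**Figure D3:**
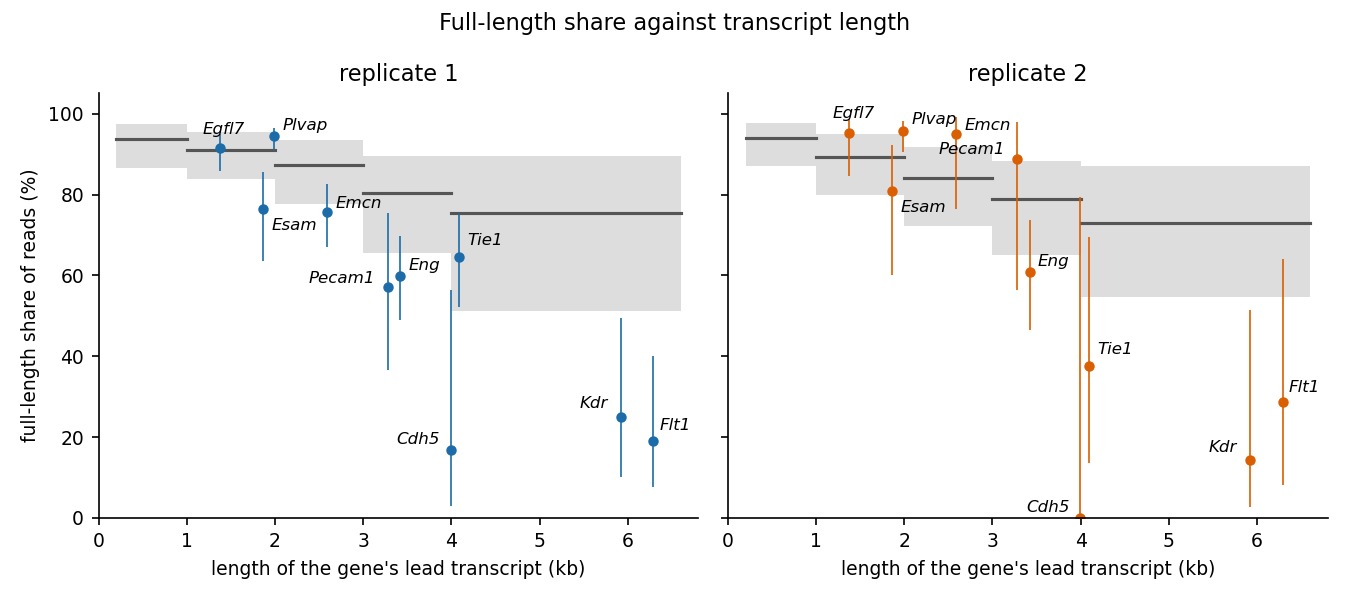
Full-length share of reads (vertical axis, %) against the length of the gene's lead transcript (horizontal axis, kb) in replicate 1 (left) and replicate 2 (right), with 95% Wilson intervals as bars. Grey lines and bands are the median and quartiles of all genes with at least 20 reads in each library by length class, and the genes ran from over 90% for Egfl7, with its 1-exon annotated model counted, and Plvap to under 30% for Kdr and Flt1.

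Reads that were not full-length mostly fell in models that keep the 3′ end. Of 166 such reads in replicate 1, 143 were in models ending within 100 nt of an annotated 3′ end, or 86.1% (80.1 to 90.6). In replicate 2, 44 of 48 were, or 91.7% (80.4 to 96.7). These are ends of models, and the Tie1 model of 1 base sits exactly at the annotated end, so where the reads stopped is not shown. For Plvap, Egfl7 and Esam all such reads were in models of this kind in both libraries. The share was lower for Flt1, with 5 of 17 and 1 of 5, and for Pecam1 in replicate 1, with 5 of 9. Among spliced ISM reads, 81 and 18 lacked the 5′ part of the transcript, and 15 and 1 were of the prefix kind, which matches from the 5′ end, some of them also within 100 nt of an annotated 3′ end.

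Flt1 reads fell in models on both sides of the fork between its forms. The gene lies on chromosome 5 from 147561604 to 147726011, and its soluble form, Flt1-203, has 13 exons and stops before the transmembrane segment and the kinase. Its last exon runs on past the end of the shared exon 13 for 4066 nt. In the printed fork, the bases that follow in Flt1-203 are those of the intron that Flt1-202 removes, and those in Flt1-202 begin the next exon.

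Flt1-203 held 4 reads in replicate 1 and 1 read in replicate 2. As a Known model it carries annotated ends, so these reads are not shown to run to its end. The membrane form Flt1-202, of 30 exons and 6895 nt, had 0 full-length reads in either library, as did the third annotated transcript, Flt1-201. A 0 here allows up to 3 reads in each library. The forms are of like length, 6292 and 6895 nt, but of 13 and 30 exons. The last 4066 nt of Flt1-203 hold no junction. A read can match Flt1-203 over fewer junctions, so these counts do not measure the proportion of the forms.

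Reads in models that hold bases of only 1 form gave a wider count. In replicate 1, 7 reads were in models with bases of the soluble form alone and 5 in models with bases of the membrane form alone, a soluble share of 58.3% (95% Wilson interval 32.0 to 80.7). In replicate 2, 2 were soluble and 4 membrane, or 33.3% (9.68 to 70.0). Pooled over both libraries the counts were 9 and 9, and the intervals of the libraries overlapped. The other 9 reads and 1 read could not be given to a form, and among them were 3 reads of 1 exon in introns in replicate 1. Reads of Flt1-203 take its annotated end, so where these reads stopped is not shown.

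Most of the membrane-form reads were of 1 exon. In the terminal exon of Flt1-202, 5 reads in replicate 1 and 3 in replicate 2 lay within the exon and crossed no junction, and 1 read in replicate 2 was a spliced piece of 5 exons. Of the reads counted as soluble, 5 and 1 were spliced, and 4 and 1 of these were of Flt1-203. In replicate 1, the model of a 6-exon read and a model of 2 one-exon reads ended at the same base, 1990 nt past the fork. The annotated end lies at 4066 nt. The model of a 1-exon read of replicate 2 ended 1235 nt past the fork.

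Reads of spliced or annotated models alone were sorted by whether the model ends before the exon that follows the fork in the membrane form. The model did so for 11 of 11 reads in replicate 1 and 2 of 3 in replicate 2. That count includes 5 reads of 1 model that held the first 3 exons and stopped there, which either form could give. It also includes 1 read in each library whose model ended at the last base of exon 13.

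**Figure D4:**
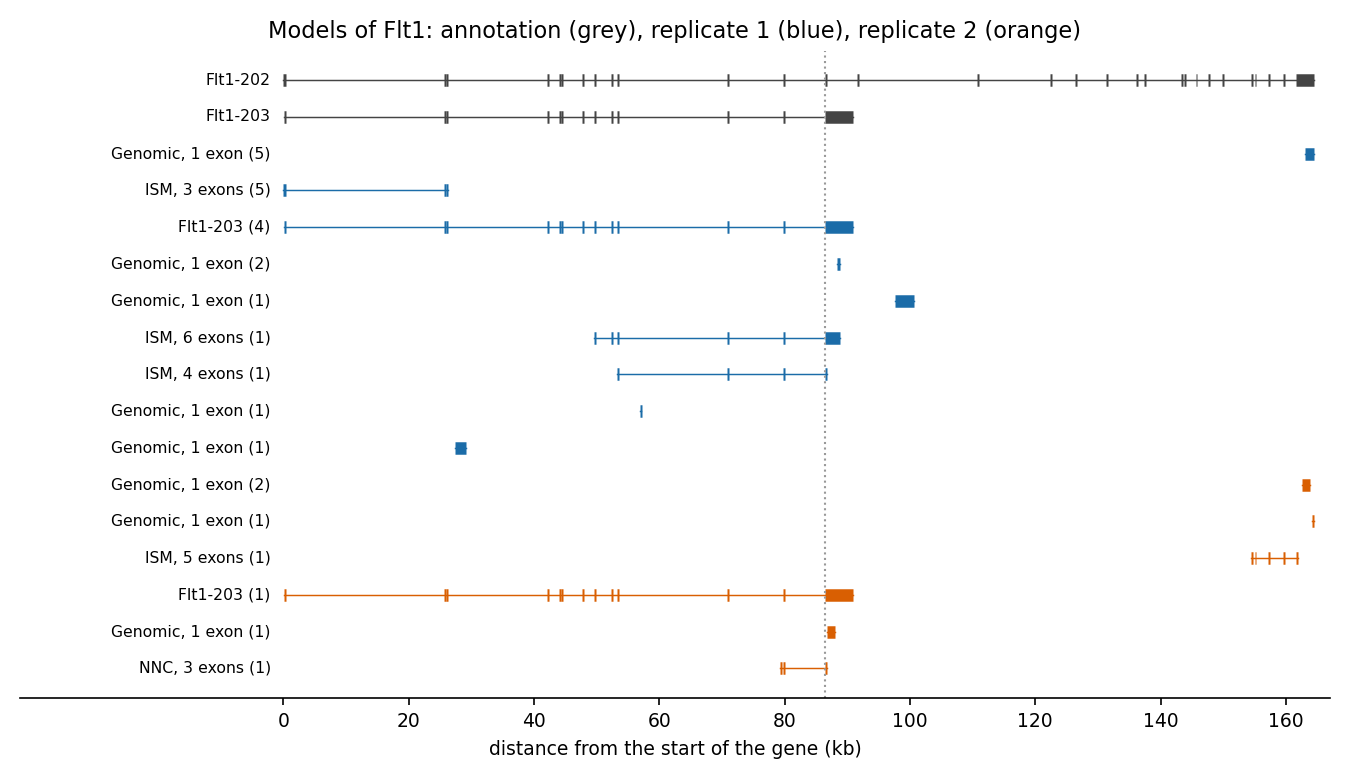
Models of Flt1 along the gene (horizontal axis, distance from the start of the gene in kb), with the annotated membrane form Flt1-202 and soluble form Flt1-203 in grey, models of replicate 1 in blue and of replicate 2 in orange, and the number of reads in brackets. Boxes are exons, with very short ones widened to stay visible, and the dotted line marks where the last exon of Flt1-203 starts. The Flt1-203 models held 4 reads and 1 read, and the reads at the far right lay in the terminal exon of the membrane form.

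Kdr, on chromosome 5 from 75932827 to 75978458, had 3 reads and 1 read of Kdr-201. Its shorter annotated transcripts, Kdr-202 and Kdr-203, which keep an intron, had 0 reads in both libraries. Most of its other reads lay toward the 3′ end. In replicate 2, 5 of its 7 reads were 1 Genomic model of 797 nt at the annotated 3′ end, which held 0 reads in replicate 1. Replicate 1 had 4 reads of 1 exon in the terminal exon of Kdr-201.

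Plvap had close to 1 form. Plvap-201, of 6 exons, held 265 of 271 full-length reads in replicate 1, or 97.8% (95.3 to 99.0), and 114 of 115 in replicate 2, or 99.1% (95.2 to 99.8). A 1-exon model of 641 nt at its 3′ end held 12 reads in replicate 1 and 0 in replicate 2. A model of 4 exons that lacks the 5′ part held 2 and 5 reads. Gtpbp3 overlaps the 3′ end of Plvap on the opposite strand and had 57 and 11 reads.

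Egfl7 had the most forms, with 31 models in replicate 1 and 12 in replicate 2. The model with the most reads was Egfl7-213, an annotated fragment of 536 nt in 1 exon that keeps the last intron, with 39 and 15 reads. It counts as Known and therefore as full-length, yet it starts far inside the gene. The 10-exon coding transcript Egfl7-202 followed with 38 and 12 reads. Without such 1-exon annotated models, 89 of 141 reads and 26 of 43 were full-length, or 63.1% and 60.5%.

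The share of Egfl7-213 among full-length reads was 30.2% in replicate 1 and 36.6% in replicate 2. Eng-201 held 69.4% and 75.0% of those of Eng. Over the 3 genes with enough full-length reads for a test, Egfl7, Eng and Plvap, the leading isoform's share did not differ between the libraries by Fisher's exact test, with 0 called, 0 at an unadjusted p under 0.05, and 1.11% called over all 2799 genes tested.

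Retention of the last intron of Egfl7 was counted against its removal from the further of 2 donors, with reads of the nearer donor left out. By their models, 42 of 136 reads in replicate 1 kept the intron, or 30.9% (23.7 to 39.1). In replicate 2, 16 of 42 did, or 38.1% (25.0 to 53.2). Of these, 39 and 15 reads were of Egfl7-213, which carries annotated ends. Whether each of those reads crossed the intron is therefore not shown. Where the intron was removed, the exon before it ended at the further donor, keeping the printed 39 bases, in 94 of 98 and 26 of 27 reads. The intron that holds the Mir126a hairpin, intron 7 of Egfl7-202, was kept in 3 of 80 and 0 of 19 reads. The microRNA gene itself had 0 reads in both libraries. Agpat2 overlaps the annotated 3′ end of Egfl7 on the opposite strand with 1249 and 373 reads. Its span begins at 26593057, and every Egfl7 model with reads ended at 26592684 or before. Gm20532 overlaps the gene on its own strand with 3 and 3 reads, so a few reads there could belong to either gene.

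Spliced Egfl7 reads were sorted over the first exons of 3 of its annotated coding transcripts, Egfl7-212 upstream, Egfl7-202 in the middle and Egfl7-216 downstream. Egfl7-212 had 12 reads and 1 read and Egfl7-216 5 and 1. Of 90 spliced reads in replicate 1 that began with any of these exons, 70 began with the middle first exon, or 77.8% (68.2 to 85.1), 15 with the most upstream and 5 with the most downstream. In replicate 2, 21 of 25 began with the middle one, or 84.0% (65.3 to 93.6), 2 with the upstream and 2 with the downstream. The middle exon led in both libraries, and the other 2 tied in replicate 2.

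Since reads separate these starts, the 250 bases before the nearest RefSeq start of each are printed (GRCm38.p6, plus strand). From upstream to downstream, the RefSeq starts lie 27, 15 and 6 bases from the annotated ones. The most upstream and most downstream windows thus run into the annotated first exon. Capitals mark GGAA or TTCC, the 2 strands of the core bound by ETS transcription factors, with no overlap between them. The windows are chr2:26580833-26581082, chr2:26583615-26583864 and chr2:26586386-26586635.
Egfl7 most upstream start: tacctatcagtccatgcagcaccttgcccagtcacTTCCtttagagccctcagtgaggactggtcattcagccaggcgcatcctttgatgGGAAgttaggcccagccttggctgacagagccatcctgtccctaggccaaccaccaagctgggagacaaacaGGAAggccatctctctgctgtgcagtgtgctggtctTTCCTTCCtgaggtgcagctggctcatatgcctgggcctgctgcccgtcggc
Egfl7 middle start: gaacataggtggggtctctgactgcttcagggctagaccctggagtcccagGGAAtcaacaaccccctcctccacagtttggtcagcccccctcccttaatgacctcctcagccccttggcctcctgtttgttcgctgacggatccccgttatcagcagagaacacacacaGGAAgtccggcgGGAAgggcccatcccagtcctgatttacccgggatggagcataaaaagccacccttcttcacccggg
Egfl7 most downstream start: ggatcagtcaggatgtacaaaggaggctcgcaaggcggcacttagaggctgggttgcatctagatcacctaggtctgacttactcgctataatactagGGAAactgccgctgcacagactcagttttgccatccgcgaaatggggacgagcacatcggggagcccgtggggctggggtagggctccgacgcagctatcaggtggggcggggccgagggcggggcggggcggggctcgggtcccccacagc

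The windows held 5, 3 and 1 matches. The 6 genes Egfl7, Eng, Emcn, Tie1, Kdr and Flt1 had entries, with 8 windows in all, and all 8 held GGAA or TTCC. Over 32851 windows of the same length, 93.4% held one, with a median of 3 matches, so its presence sets these windows apart from few others. Plvap, Pecam1, Cdh5 and Esam had no entry.

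Eng was read in 2 near-identical forms. Eng-201 had 34 and 21 reads and Eng-205 11 and 6, and they part at the start of the second exon, where Eng-201 takes the first and Eng-205 the second of 2 acceptor sites in a row. The 3 printed bases, 1 codon long, were kept in 35 of 50 reads in replicate 1, or 70.0% (56.2 to 80.9), and in 22 of 28 in replicate 2, or 78.6% (60.5 to 89.8). The last intron of Eng, whose retention gives the short-tailed S-endoglin, was kept in 1 of 75 and 0 of 34 reads.

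Incomplete Eng reads, 40.2% and 39.1% of its reads in the ISM class, were spread over many models. A 1-exon model of 682 nt at the 3′ end held 11 reads in replicate 2, and 1 of 507 nt that stops at the same base held 3 in replicate 1. A 13-exon model that lacks the 5′ part held 7 and 0, and one of 9 exons held 6 and 2. Fpgs overlaps the 3′ end of Eng on the opposite strand and had 19 and 9 reads.

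Emcn read mostly as the 12-exon transcript Emcn-202, with 72 and 18 reads, and Emcn-201, of 11 exons, had 8 and 0. The printed 39-nt exon was included in 75 of 84 reads in replicate 1, or 89.3% (80.9 to 94.3), and in 18 of 19 in replicate 2, or 94.7% (75.4 to 99.1). The 114-nt exon before it was included in 81 of 83 and 18 of 19. Both exons are whole numbers of codons, and they lie in the coding part.

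Pecam1 varied in 2 coding exons. Splicing of the cytoplasmic tail of mouse Pecam1 is known to change which signalling motifs the protein carries. The printed 57-nt exon 14 was included in 13 of 17 reads in replicate 1, or 76.5% (52.7 to 90.4), and in 4 of 8 in replicate 2, or 50.0% (21.5 to 78.5). The 23-nt exon 15 was included in 6 of 17, or 35.3% (17.3 to 58.7), and 2 of 8, or 25.0% (7.15 to 59.1). The intervals of the libraries overlapped at both exons.

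Exon 14 is a whole number of codons and exon 15 is not, so inclusion of exon 15 moves the reading frame of what follows. 3 annotated Pecam1 transcripts were read, at low counts. Pecam1-202, with the longer exon alone, had 5 and 2 reads, Pecam1-204, with both, had 3 and 1, and Pecam1-203 had 0 and 3. A pair of unannotated Pecam1 models that rejoin annotated sites were found in both libraries by identical introns, with 1 read in each.

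Tie1, on chromosome 4 from 118471191 to 118490061, had 31 reads of the 23-exon Tie1-201 in replicate 1 and 3 in replicate 2. A 12-exon model that lacks the 5′ part held 8 and 0. Esam-201, of 7 exons, held 36 and 16 reads, and a 4-exon model that lacks the 5′ part held 6 and 0. Cdh5 had 1 full-length read, of Cdh5-201 in replicate 1. Its other 5 reads there were 1 model of 2031 nt in its last exon.

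Across the 10 genes, 48 unannotated spliced models were listed in replicate 1 and 11 in replicate 2, and 3 had the same intron chain in both. The Egfl7 one, of 10 exons and 1486 nt, held 5 and 7 reads. It was the only one of the 3 with more than 1 read in each library.

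**Figure D5:**
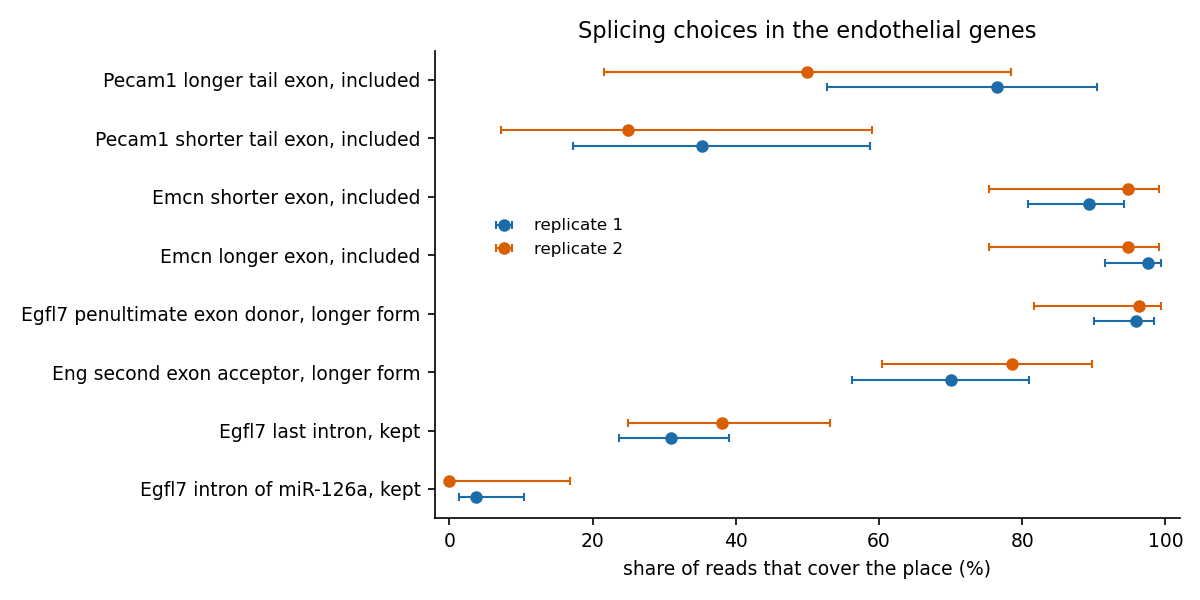
Share of the reads counted at a place that used the named choice (horizontal axis, %), in replicate 1 (blue) and replicate 2 (orange), with 95% Wilson intervals as bars. At the last intron of Egfl7, reads of the nearer donor are left out. The Pecam1 tail exons sat between 25.0% and 76.5% with wide intervals, and the Emcn exons and the Egfl7 donor at 89.3% or above.

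Genes that work beside these 10 were also read. Among 22 other endothelial genes, 22 had reads, they summed to 422 and 441 CPM, and 0 of 18 tested were called between the libraries, against 14.0% over all genes. Their highest were the tight junction claudin Cldn5 at 77.8 and 60.3 CPM, the protein C receptor Procr at 48.9 and 67.5, Rasip1 at 33.2 and 48.2, and Tm4sf1 at 28.8 and 41.0. Vwf, which stores in endothelial granules, had 2 reads and 1 read.

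Both Vegfa and Vegfb had higher levels than the receptors they bind. Vegfa, the main ligand of Kdr, stood at 228 and 328 CPM against 14.0 and 16.9 for Kdr, and Vegfb, a ligand of Flt1, at 129 and 96.5. In the list of VEGF and angiopoietin ligands and co-receptors, 2 of 6 tested genes were higher in replicate 2 and none lower, against 7.86% and 6.13% over all genes. Vegfa had a log2 ratio of 0.59 (adjusted p = 0.00206, exact binomial test), and was no longer called in full-length reads. Nor was it called without the Genomic class (adjusted p = 0.109, same test) or in multi-exon models. It stayed called in the other settings, equal depth among them. Vegfd had a log2 ratio of 1.86 (adjusted p = 1.95e-07, exact binomial test), from 36 and 46 reads of which 6 and 4 were full-length. It too was not called in full-length reads, nor in multi-exon models. The co-receptor Nrp1 was at 62.9 and 57.9 CPM.

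Genes of the endoglin pathway summed to 340 and 367 CPM, led by its target Id3 at 157 and 135 CPM, Smad4 at 48.1 and 41.0, Id1 at 28.0 and 36.2 and Smad1 at 10.5 and 26.5. Of 12 tested, 1 was higher in replicate 2, against 7.86% over all genes, and none was lower. It was the receptor Bmpr2, from 3 and 8 reads of which 0 were full-length (log2 ratio 2.55, adjusted p = 0.0144, exact binomial test). The endoglin ligand Gdf2 had 0 reads, which allows up to 2.62 and 7.24 CPM. Junction and caveolae partners summed to 716 and 562 CPM, with 0 of 10 tested called against 14.0% over all genes. The catenins Ctnna1 and Ctnnb1, which bind cadherins, led them at 197 and 145 and at 148 and 116 CPM, before the caveolar genes Cavin1 at 99.6 and 116 and Cav1 at 111 and 62.7.

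Endothelial transcription factors summed to 266 and 222 CPM, and 2 of 8 tested were lower in replicate 2, against 6.13% over all genes, and none was higher. These were the flow-responsive Klf2 at 65.5 and 26.5 CPM (log2 ratio -1.20, adjusted p = 0.0455, exact binomial test) and Ets2 at 33.2 and 7.24 CPM (log2 ratio -1.99, adjusted p = 0.0462, exact binomial test). Hhex stood at 44.6 and 45.8 CPM, Lmo2 at 35.8 and 45.8 and Gata2 at 25.3 and 38.6. At equal depth neither Klf2 nor Ets2 was called, with log2 ratios of -1.30 for Klf2 (adjusted p = 0.0549, exact binomial test) and -1.68 for Ets2 (adjusted p = 0.231, same test).

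Of arterial and venous genes, 8 of 11 had reads. Nr2f2, a venous factor also made by other cells, led at 69.9 and 31.4 CPM, followed by the venous receptor Ephb4 at 24.5 and 53.1, Notch4 at 15.7 and 14.5 and Gja4 at 1.75 and 9.65. Ephb4 was the 1 of 3 tested that was called, against 14.0% over all genes. It was higher in replicate 2 (log2 ratio 1.16, adjusted p = 0.0401, exact binomial test), though not by total-read scaling (adjusted p = 0.0619, exact binomial test). Nor was it called with no minimum of reads, in multi-exon models, or at equal depth, where its log2 ratio was 0.71. It stayed called in full-length models, without the Genomic class and with DESeq2 size factors. The arterial genes Efnb2 and Hey2 and the venous gene Ackr1 had 0 reads.

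Markers of the cells nearest the endothelium were also read. Lymphatic genes summed to 14.0 and 12.1 CPM, with Lyve1 at 5.24 and 2.41, Pdpn at 4.37 and 2.41, 1 of the 2 genes read under the symbol Ccl21a at 1.75 and 4.82 and Prox1 at 1.75 and 2.41, and Mmrn1 had 0 reads. Pericyte and smooth muscle genes summed to 127 and 118 CPM, led by Tagln at 44.6 and 36.2 CPM, Kcnj8 at 20.1 and 26.5, Rgs5 at 14.9 and 24.1 and Acta2 at 28.8 and 9.65. None of the 5 tested was called. Macrophage genes summed to 507 and 405 CPM, led by Cd74 at 188 and 166 CPM, Lyz2 at 123 and 84.4, C1qa at 67.3 and 55.5 and C1qb at 50.7 and 38.6. None of the 7 tested was called, nor any tested in the pericyte and erythroid lists, against 14.0% over all genes. Platelet genes, which share some surface proteins with endothelium, summed to 15.7 and 7.24 CPM, with Pf4 at 13.1 and 4.82, Itga2b at 0.874 and 2.41 and Gp1bb at 1.75 and 0, and Ppbp, Gp9 and Treml1 had 0 reads. Erythroid genes summed to 4034 and 3845 CPM, with Hba-a1 at 2049.7 and 2064.7, Hbb-bs at 1103 and 1006, Hba-a2 at 597 and 545 and Hbb-bt at 258 and 212. None of the 5 tested was called. The part of these cells in the levels of the 10 genes was not tested.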

How the data were processed

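Per the labels' protocols, RNA was processed by the ENCODE long-read pipeline for mouse, and the file headers name TALON as source of the models. The authors deposited counts of whole reads per transcript model, not normalized, for each of 2 libraries, with exon counts and lengths in other columns, per the file headers. Reads were aligned to mm10 and compared with GENCODE M21. The aligner is not stated in the sources used here. Known models carry annotated ends, and many other models end exactly at them, so the true ends of their reads are not shown.

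Counts were summed per gene and expressed per 1000000 annotated-gene reads, with spike-ins and unannotated loci excluded. Genes with at least 10 reads in total were compared by a two-sided exact binomial test with TMM scaling (edgeR 4.0.16), a pseudocount of 1 CPM for log2 ratios, Benjamini-Hochberg adjustment over all genes and a threshold of 0.05. edgeR's quasi-likelihood test cannot be fitted with 1 library per arm. Full-length and leading isoform shares were compared by Fisher's exact test in genes with at least 20 reads, or full-length reads, in each library. Unannotated models were matched by intron chain. DESeq2 1.42.0 gave alternative size factors. Intervals are 95% Wilson or exact Poisson (scipy 1.17.1) and cover counting error only, since no molecular identifiers are recorded. The tests were checked on simulated counts.

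Named are all 10 genes and their models with at least 5 reads in total. Every Flt1 model ending before the exon that follows the fork in the membrane form is named too. In each other list, the 4 highest genes and every called one are named. Vwf, Gdf2, the other genes at 0 reads, the adrenal genes, the overlapping genes and the models under 5 reads outside Flt1 were named after their values were seen. The members and lists were chosen with earlier results of these data known.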

Additional observations from a re-analysis of the deposited data

Results flagged for a closer look

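Reads outside the annotated models lay antisense to Flt1 and Egfl7, above the 3 reads that a count of 0 allows. Unannotated antisense loci over Flt1 held 6 reads in replicate 1 and 9 in replicate 2, in 3 loci in each library. The locus over Egfl7 held 18 reads in replicate 1 and 1 read in replicate 2. All of these reads were of 1 exon.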

How the results depend on the processing

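No paired analysis was possible because the 2 libraries form 1 group. Leaving out a library ends the tests between libraries, so those have no such value. The summed level of 690.4 CPM became 638.4 with all reads as denominator, 712.1 in full-length models, 715.7 without the Genomic class and 705.0 in multi-exon models alone, and ran from 680.2 to 700.7 with either replicate left out. The other endothelial genes, at a mean of 431.7 CPM, became 405.6 in full-length models and ran from 422.0 to 441.4. The 2 called members became 0 with no minimum of reads and 0 with replicate 1 thinned. They became 1 in full-length models (Tie1, lower), 1 without the Genomic class (Eng, higher) and 1 in models of more than 1 exon with total-read scaling (Tie1, lower), and stayed 2 with total reads or DESeq2 size factors. The mean full-length share of 81.1% became 74.2% with Known alone, 84.4% without the Genomic class in the denominator and 76.0% without annotated 1-exon models, and ran from 79.3% to 83.0%. The mean leading isoform share of 68.0% became 60.0% in Known models, over 2 genes, and 76.8% at 10 reads, over 5 genes, and ran from 65.8% to 70.2%. The mean share of Flt1 reads in models ending before the exon that follows the fork in the membrane form was 83.3%. With 1-exon models included it became 57.1%. It ran from 66.7% to 100% with either replicate left out, and in full-length classes alone it was 100%, from 4 and 2 reads. The cause of these shifts was not tested beyond the models each leaves out. Of 98 recomputed log2 ratios of single genes, 69 kept their direction and side of the threshold, 24 lost the call, 1 gained it and 4 turned sign without a call. The 4 were Kdr at -1.25 without the Genomic class and -0.91 in multi-exon models, Flt1 at 0.067 with replicate 1 thinned and Esam at -0.021 in multi-exon models. Of single-gene mean levels, Cdh5 moved from 3.83 CPM to 0.534 in full-length models and 0.505 in multi-exon ones, Kdr and Flt1 from 15.4 and 17.6 to 9.04 and 10.03 in multi-exon ones, and without replicate 1 Cdh5 was 2.41, Emcn 48.2 (from 72.6) and Tie1 19.3 (from 36.7). The settings on 1-exon and multi-exon models were chosen after the data were seen.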
